A study of Mus musculus with 45 samples.

Results

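The 10 genes described here encode the layered protein scaffold of the excitatory postsynaptic density: the membrane-associated guanylate kinases Dlg1, Dlg2, Dlg3 and Dlg4, the Dlg-associated proteins Dlgap1, Dlgap2 and Dlgap3, and the SH3 and ankyrin repeat proteins Shank1, Shank2 and Shank3. They were chosen by gene name, as the rows of the count table whose Ensembl identifier maps to these mouse symbols, and all 10 were found among 54532 genes. The libraries came from C57BL/6N mouse hippocampal neurons, cultured from newborn pups in B27 medium with 1% rat serum, given AraC against dividing cells on day 3, and treated on day 11 in vitro. Each of 9 conditions was sampled in 5 culture preparations, numbered 1, 3, 6, 7 and 8, which makes 45 libraries. Controls were untreated. Bicuculline, a GABAA receptor blocker that drives action potential (AP) firing (Bic, 50 µM), was given for 0.5, 1 or 2 h. The short protocol (SP) began with 0.5 h of Bic, after which tetrodotoxin (TTX, 1 µM), a sodium channel blocker that stops AP firing, was present for 0.5 h, alone or together with the receptor agonist NMDA (30 µM). The long protocol (LP) used 1 h for each step and had a further arm, in which the glutamate transporter blocker TBOA (50 µM) took the place of TTX. TTX against Bic of the same total duration gives the passive effect, TTX/NMDA against TTX the active effect, TTX/NMDA against Bic the total effect, and TBOA against 2 h Bic the effect of glutamate spillover. A culture of this kind models mixed hippocampal cells grown outside the animal, and bath-applied NMDA reaches receptors at and outside synapses alike.

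At an excitatory synapse the Dlg proteins sit under the membrane and hold NMDA receptors and, through auxiliary subunits, AMPA receptors by their PDZ domains. Dlgap proteins bind the guanylate kinase-like domain of the Dlg proteins and, with their C terminus, the PDZ domain of the Shank proteins. Shank proteins, the deepest layer, bind Homer and connect the assembly to metabotropic glutamate receptors and the actin cytoskeleton. NMDA receptor overactivation is a common trigger of excitotoxic injury in these neurons.

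Levels are given as CPM, read counts scaled to a common library size, after TMM normalization. Library totals ran from 11316580 to 81129276 counts, and the members were well covered, with 447 to 54645 counts per member and library. As a check of the stimulus, Npas4, Fos, Arc, Bdnf and Inhba, 5 of 5 activity-induced genes, were called higher after 2 h Bic than in control. The 8 neuron markers were expressed, Rbfox3 at 161 to 233 CPM and Slc17a7, the vesicular glutamate transporter of excitatory neurons, at 447 to 1178 CPM. Astrocyte markers were present too, with Gfap at 154 to 665 CPM and Slc1a3 at 131 to 503 CPM. In control libraries the summed level of 6 oligodendrocyte lineage markers averaged 147.8 CPM. That of 5 endothelial and mesenchymal markers averaged 48.96 CPM, and that of 6 microglial markers 5.81 CPM. Within these lists, the microglial marker P2ry12 reached at most 0.357 CPM and the endothelial marker Cldn5 at most 0.0894 CPM. Among the control libraries, that of preparation 3 had the lowest level of all 10 members, with a summed member level of 2479 CPM against 3174 to 3623 CPM in the other 4. Without preparation 3, the number of members called against control was 0 after 0.5 h Bic, 0 after 1 h, 2 after 2 h, 1 with LP TTX and 9 with LP TTX/NMDA, against 0, 0, 2, 1 and 8 with all preparations.

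In control neurons, levels per kilobase of exon model, the scale on which genes can be compared, ran from 6.62 to 66.0 CPM per kb. Dlgap3 had 66.0 ± 6.56 CPM per kb (SD, n = 5), Dlg4, which encodes the best known protein of the group, PSD-95, had 50.0 ± 5.46, Shank1 44.8 ± 10.1, Dlg2 37.4 ± 6.58, Dlg3 34.9 ± 2.22, Shank3 33.2 ± 5.76, Dlgap1 21.8 ± 2.72, Shank2 15.2 ± 3.54, Dlgap2 7.56 ± 2.33 and Dlg1 6.62 ± 0.545 CPM per kb. Read library by library, Dlgap3 lay above Dlg4, Shank1 above Dlg2, Shank3 above Dlgap1, Dlgap1 above Shank2 and Shank2 above Dlgap2 in 5 of 5 control libraries. The order of the other neighbours did not hold throughout: Dlg4 was above Shank1 and Dlg2 above Dlg3 in 4 of 5, and Dlg3 above Shank3 and Dlgap2 above Dlg1 in 3 of 5. The level of Dlgap3 exceeded that of 95.3% of 13578 expressed genes and that of Dlg1 that of 54.5% of them. The exon model adds up the exons of all transcripts of a gene, so a gene with many alternative exons comes out low on this scale.

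The genes are dispersed over the genome (GRCm38): Dlg1 lies on chr16:31663443-31875129, Dlg2 on chr7:90476672-92449247, Dlg3 on chrX:100767722-100818410, Dlg4 on chr11:70016942-70047522, Dlgap1 on chr17:69969073-70821413, Dlgap2 on chr8:14095865-14847680, Dlgap3 on chr4:127169204-127237022, Shank1 on chr7:44310253-44360572, Shank2 on chr7:144001928-144424494 and Shank3 on chr15:89499623-89560261, all on the plus strand. Their spans differ widely, from 30.6 kb for Dlg4 to 1973 kb for Dlg2. Only Dlg2 shares exon bases with another gene on the same strand, and these are 1.38% of its exon model. Counts are per gene, so alternative transcripts, of which Dlg and Shank genes have many, were not told apart.

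The RefSeq promoter table (GRCm38.p6) holds 7 of the 10 members with 16 start sites in all. Dlgap2, Shank1 and Shank2 have no entry. The 250 bases before the start are shown for 3 members whose changes with NMDA differed in size (below, large for Shank3, intermediate for Dlgap1, and not called for Dlg1), each on the plus strand, with any searched motif in capitals. Dlgap1 and Dlg1 have further start sites, and only the most upstream window of each is shown.
Shank3, chr15:89499358-89499607: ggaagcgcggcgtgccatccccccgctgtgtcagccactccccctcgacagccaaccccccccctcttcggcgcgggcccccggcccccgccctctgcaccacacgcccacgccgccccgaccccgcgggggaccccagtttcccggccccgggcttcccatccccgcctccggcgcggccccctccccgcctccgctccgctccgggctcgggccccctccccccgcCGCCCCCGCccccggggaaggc
Dlgap1, chr17:69968823-69969072: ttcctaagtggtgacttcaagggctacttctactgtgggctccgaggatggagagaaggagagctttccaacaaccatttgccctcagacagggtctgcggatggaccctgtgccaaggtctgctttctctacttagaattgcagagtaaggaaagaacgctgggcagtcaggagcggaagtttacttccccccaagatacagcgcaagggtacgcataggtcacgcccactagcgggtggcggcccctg
Dlg1, chr16:31663193-31663442: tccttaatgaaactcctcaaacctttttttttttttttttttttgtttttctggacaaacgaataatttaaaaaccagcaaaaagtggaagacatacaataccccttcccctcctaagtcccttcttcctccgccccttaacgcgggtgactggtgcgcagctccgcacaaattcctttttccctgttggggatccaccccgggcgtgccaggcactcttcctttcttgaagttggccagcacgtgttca
The motifs searched on both strands were the cyclic AMP response element TGACGTCA, its core TGACG (which lies within the full element), the EGR site GCGGGGGCG and the serum response factor CArG box. The Shank3 window holds an EGR site on the minus strand, a motif found in 2.57% of 32851 promoters of this length, and it is 82.4% G and C. No member window holds the full response element (1.55% of all promoters) or a CArG box (1.47%), and the core is in 1 window each of Dlg3 and Dlg4 (17.8% of all promoters). These matches describe the letters alone.

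Across all 9 conditions, each of the 10 members differed somewhere, by edgeR's quasi-likelihood F test with Benjamini-Hochberg adjustment (10 of 10 at an adjusted p under 0.05, the highest of them 0.0055, against 26% of 37048 genes tested and 59.5% of the 13592 with a mean of at least 1 CPM). The range differed between members. The highest condition mean was 1.21 times the lowest for Dlg1, 1.27 times for Dlg3, 1.29 times for Dlgap1, 1.35 times for Dlg4 and 1.42 times for Dlgap3. It reached 1.55 times for Shank2, 1.56 times for Shank1, 1.79 times for Dlgap2, 1.84 times for Dlg2 and 1.88 times for Shank3. For 9 of the members the lowest mean was that of LP TTX/NMDA, and for Dlg1 it was that of the control. In a bulk culture, fewer cells of a type and less RNA per cell cannot be told apart. The plot of levels by condition shows this trough.

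**Figure D1:**
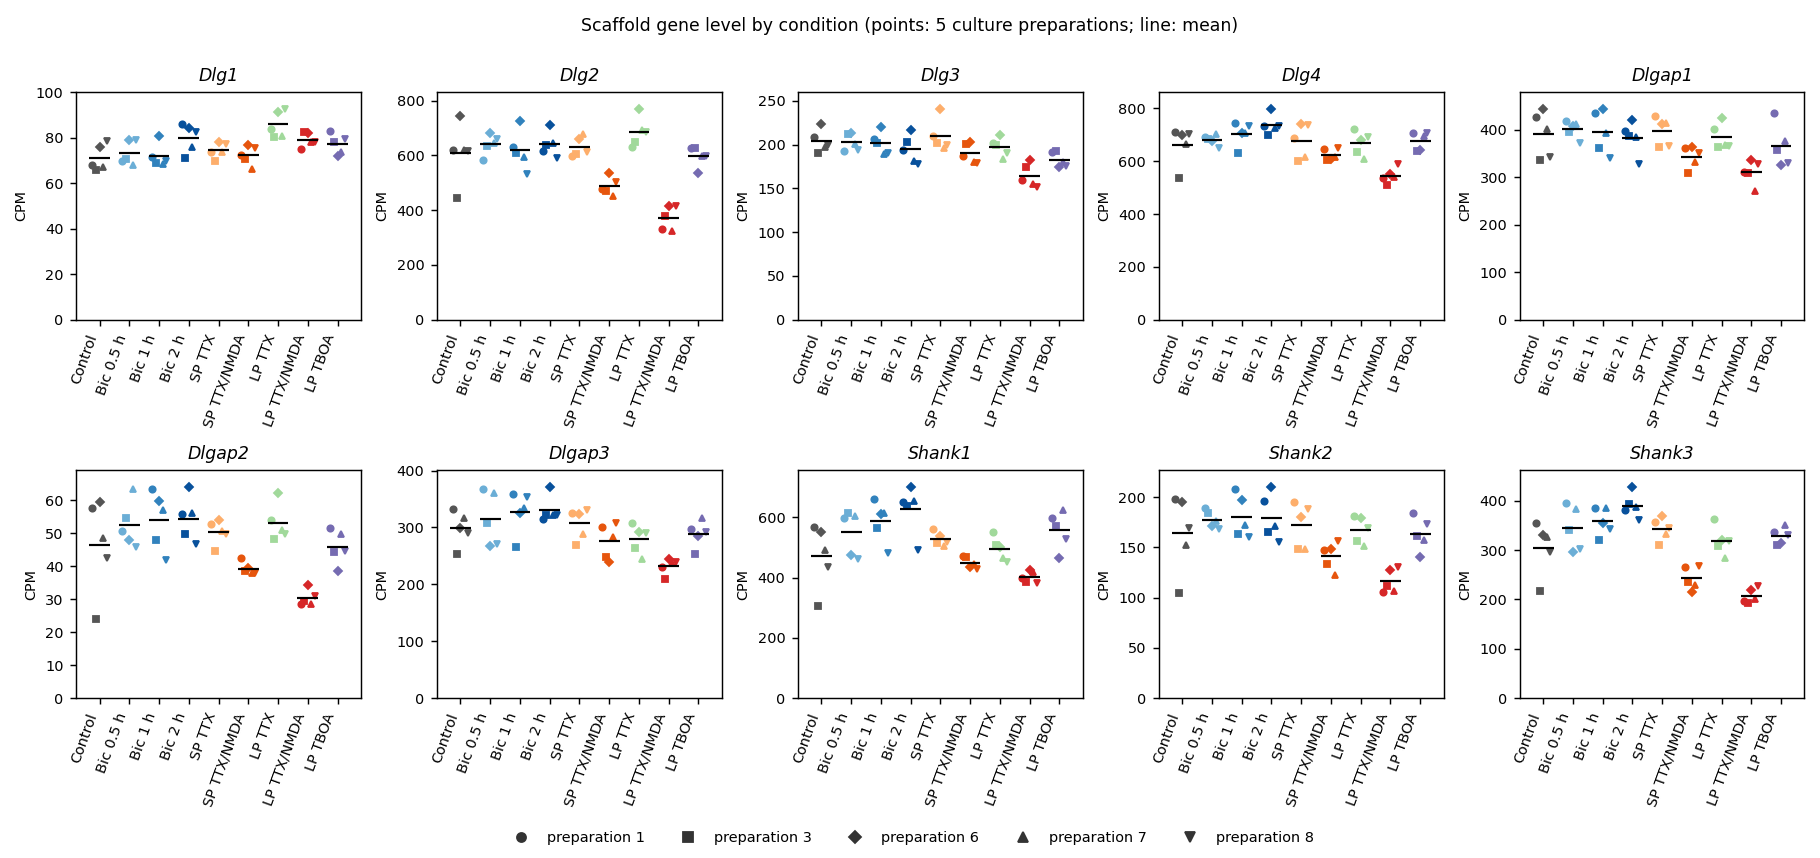
Level of each scaffold gene (CPM, linear axis from 0) in the 9 conditions, with 1 point for each of 5 culture preparations and a line at the mean. In 9 panels LP TTX/NMDA has the lowest mean, with its points for Shank3 at 193 to 227 CPM, while Dlg1 there lies at 75.0 to 82.6 CPM, and the control square of preparation 3 sits below the other control points.

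The first comparison asked how AP firing itself moved the scaffold genes. Synaptic activity raised 2 of the Shank genes and left most of the set near its starting level. After 2 h Bic, Shank1 and Shank3 were called higher than in control, 2 of 10 members against 4.24% of 30929 genes called higher (8.18% of those with at least 1 CPM). Shank3 had 354, 218, 330, 326 and 296 CPM in the control libraries of preparations 1, 3, 6, 7 and 8, and 382, 393, 427, 387 and 360 CPM after 2 h Bic. Every Bic library lay above every control library, and the log2 fold change was 0.34 (SE 0.09, adjusted p = 0.013). Shank1 had 568, 306, 551, 493 and 437 CPM in control and 649, 636, 700, 654 and 492 CPM after 2 h Bic. It was higher in 5 of 5 preparations, though the groups overlapped, and the log2 fold change was 0.40 (SE 0.11, adjusted p = 0.017). Without preparation 3 both calls held, at 0.27 for Shank1 and 0.24 for Shank3, but with low-count genes filtered out first Shank1 missed the threshold (adjusted p = 0.062). Shank2 (log2 fold change 0.12), Dlgap2 (0.22), Dlgap3 (0.14), Dlg4 (0.14), Dlg2 (0.06), Dlgap1 (-0.04) and Dlg3 (-0.08) were not called, and Dlg1 (0.16, SE 0.08, adjusted p = 0.28) was called only with the preparation as a block (adjusted p = 0.040).

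Earlier in the activity course no member passed the test. After 0.5 h Bic 0 of 10 were called, against 0.289% of 30133 genes in either direction, and 1 had an unadjusted p under 0.05. After 1 h the count was again 0, against 1.16% of 30765 genes, with 2 at an unadjusted p under 0.05. Shank1 stood at 471, 550, 586 and 626 CPM on average in control and after 0.5, 1 and 2 h, and Shank3 at 305, 344, 358 and 390 CPM. Without preparation 3 these means were 512, 535, 592 and 624 CPM for Shank1 and 327, 345, 367 and 389 CPM for Shank3. At 1 h Shank3 was higher in 5 of 5 preparations (log2 fold change 0.23, SE 0.09, adjusted p = 0.54) and was called with the preparation as a block (adjusted p = 0.046).

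The passive effect was asked for next: what stopping AP firing with TTX did to the scaffold genes while the 2 h Bic cultures went on firing. In LP, 3 of 10 members were called lower after TTX, against 1.62% of 31944 genes (3.6% of those with at least 1 CPM): Shank1, Shank3 and Dlgap3. Shank1 had 550, 506, 500, 465 and 450 CPM with TTX against the 2 h Bic values above, lower in 5 of 5 preparations by 20.3% ± 8.77 (SD) on average (log2 fold change -0.35, SE 0.07, adjusted p = 0.0029). Shank3 had 363, 308, 321, 284 and 319 CPM (log2 fold change -0.30, SE 0.06, adjusted p = 0.0036). Both were thus the members that 2 h Bic had raised, and these comparisons share the 2 h Bic libraries. Dlgap3 had 315, 322, 371, 322 and 322 CPM after 2 h Bic and 308, 264, 292, 245 and 291 CPM with TTX (log2 fold change -0.25, SE 0.07, adjusted p = 0.020). These groups did not overlap, but the call was lost without preparation 3, 6 or 7 (adjusted p = 0.075, 0.088 and 0.14) and with all 45 libraries in one fit (adjusted p = 0.13). Dlg4 (log2 fold change -0.15, SE 0.06, adjusted p = 0.19) was lower in 5 of 5 preparations and was called with the preparation as a block (adjusted p = 0.0061). The means of Dlg2, Dlg1, Dlg3, Dlgap1, Dlgap2 and Shank2 moved by -0.11 to 0.09 on the log2 scale, and none of them was called.

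After SP, TTX for 0.5 h against 1 h Bic gave no call, 0 of 10 members against 0.268% of 31765 genes, with log2 fold changes from -0.16 (Shank1) to 0.05 (Dlg3) and 1 member at an unadjusted p under 0.05. The difference between the LP and SP passive effects was not called for any member (0 of 10, against 0.256% of 34313 genes). Its widest value was -0.24 for Shank3 (95% CI -0.43 to -0.04, adjusted p = 0.81).

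The active effect is that of NMDA on top of TTX. In LP, 9 of 10 members were called lower, all but Dlg1, against 11.8% of 32852 genes called lower (26.9% of those with at least 1 CPM). The median log2 fold change was -0.31 over the 10 members and -0.01 over the 13592 genes with at least 1 CPM. Dlg2 and Dlgap2 lay lowest, then Shank3 and Shank2, then the other 5 called members at -0.27 to -0.31.

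In the Dlg layer, Dlg2, which encodes PSD-93, had 632, 648, 771, 694 and 687 CPM with LP TTX and 333, 380, 414, 325 and 416 CPM with LP TTX/NMDA. The highest NMDA library was far below the lowest TTX library, the preparations fell by 45.6% ± 5.40 on average, and the log2 fold change was -0.89 (SE 0.08, adjusted p = 3.6e-10). Dlg4 had 724, 636, 679, 607 and 693 CPM with TTX and 538, 511, 552, 540 and 588 CPM with TTX/NMDA. Here too the groups were apart, by a small margin (log2 fold change -0.30, SE 0.07, adjusted p = 0.0010). Dlg3, the X-linked member, encoding SAP102, went from 197 ± 10.6 to 165 ± 13.4 CPM (log2 fold change -0.27, SE 0.07, adjusted p = 0.0032). Dlg1, which encodes SAP97 and is used in many tissues, had 83.9, 80.4, 91.3, 80.8 and 92.8 CPM with TTX and 75.0, 82.6, 82.0, 78.0 and 78.2 CPM with TTX/NMDA. These groups overlapped and preparation 3 went up, with a log2 fold change of -0.13 (95% CI -0.26 to 0.01, adjusted p = 0.20).

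In the Dlgap layer, Dlgap2 had 54.0, 48.4, 62.3, 50.9 and 49.9 CPM with LP TTX and 28.6, 29.6, 34.4, 28.6 and 31.1 CPM with LP TTX/NMDA. It fell in 5 of 5 preparations, by 42.4% ± 3.96, with no overlap (log2 fold change -0.81, SE 0.08, adjusted p = 3.9e-09). Dlgap1 went from 385 ± 27.2 to 311 ± 24.9 CPM (log2 fold change -0.31, SE 0.07, adjusted p = 0.00084) and Dlgap3 from 280 ± 25.2 to 232 ± 14 CPM (-0.28, SE 0.07, adjusted p = 0.0039). The Dlgap paralogs thus differed in size of change: the 95% CI was -0.97 to -0.65 for Dlgap2, -0.46 to -0.17 for Dlgap1 and -0.42 to -0.13 for Dlgap3, a difference that was not itself tested.

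In the Shank layer, Shank3 had 363, 308, 321, 284 and 319 CPM with LP TTX and 196, 193, 219, 202 and 227 CPM with LP TTX/NMDA. No library of one group reached the other, and the log2 fold change was -0.63 (SE 0.07, adjusted p = 5.8e-08). Shank2 had 181, 156, 179, 151 and 169 CPM with TTX and 106, 111, 127, 107 and 130 CPM with TTX/NMDA (log2 fold change -0.53, SE 0.07, adjusted p = 1.7e-06). Shank1 had 400, 386, 426, 419 and 382 CPM with TTX/NMDA against its TTX values above (log2 fold change -0.30, SE 0.07, adjusted p = 0.00092). All 9 called members fell in 5 of 5 preparations with no overlap between the groups, which 21% of the 13592 genes with at least 1 CPM also did.

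**Figure D2:**
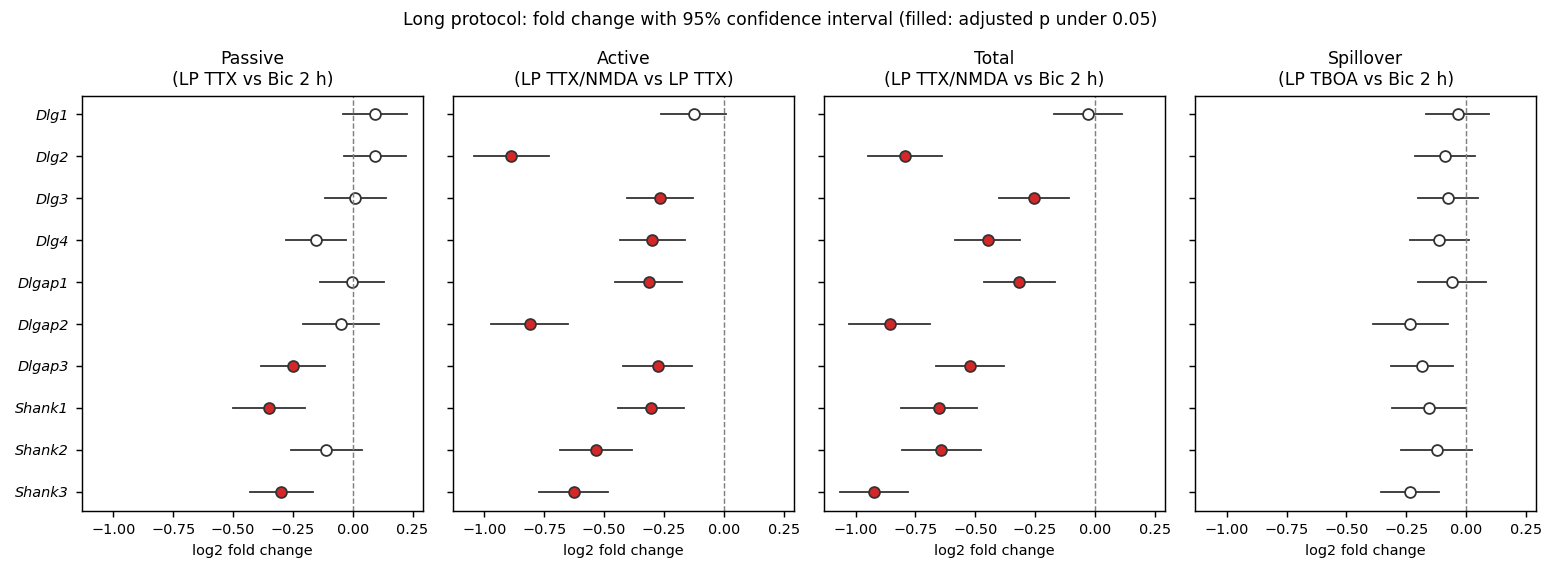
Log2 fold change of each scaffold gene with its 95% confidence interval in the 4 long-protocol comparisons, filled where the adjusted p was under 0.05. With NMDA 9 of 10 genes are filled and below 0 in both the active and the total panel, with Dlg2 at -0.89 and -0.79, while the spillover panel has no filled point.

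The make-up of the RNA moved together with the LP active effect. All 6 of 6 astrocyte markers were called higher with TTX/NMDA, and their summed level was 433 to 912 CPM with LP TTX and 780 to 1632 CPM with LP TTX/NMDA. Of the 6 oligodendrocyte lineage markers 4 were called higher, as were 3 of 5 endothelial and mesenchymal and 2 of 6 microglial markers, and Mog, P2ry12 and Cldn5 were at or near 0 throughout. The summed level of the 8 neuron markers was 6878 to 7681 CPM with LP TTX and 5930 to 6489 CPM with LP TTX/NMDA, with 3 of 8 called lower (Slc17a7, Map2 and Syn1) and none higher. Mitochondrial transcripts took 0.740% to 0.938% of counts with LP TTX and 1.40% to 1.87% with LP TTX/NMDA. Their part in the member changes was not tested. The fits were repeated with each library scaled to its neuron marker counts, a choice made after the data had been seen. This raised every log2 fold change of the LP active effect by about 0.25. The split over all genes was 3807 higher and 3861 lower with TMM against 8206 higher and 1585 lower with neuron markers. The scale is the sum of the 8 markers, including the 3 called lower, so the most abundant weigh most. With TMM their median log2 fold change was -0.07. Whether NMDA changes the markers within neurons was not tested. On that scale 4 of 10 members stayed called lower, against 4.82% of genes: Dlg2 (-0.64), Dlgap2 (-0.56), Shank3 (-0.38) and Shank2 (-0.29). Dlg3, Dlg4, Dlgap1, Dlgap3 and Shank1 came to -0.02 to -0.07 and were not called, and Dlg1 changed sign to 0.12 (adjusted p = 0.27).

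**Figure D3:**
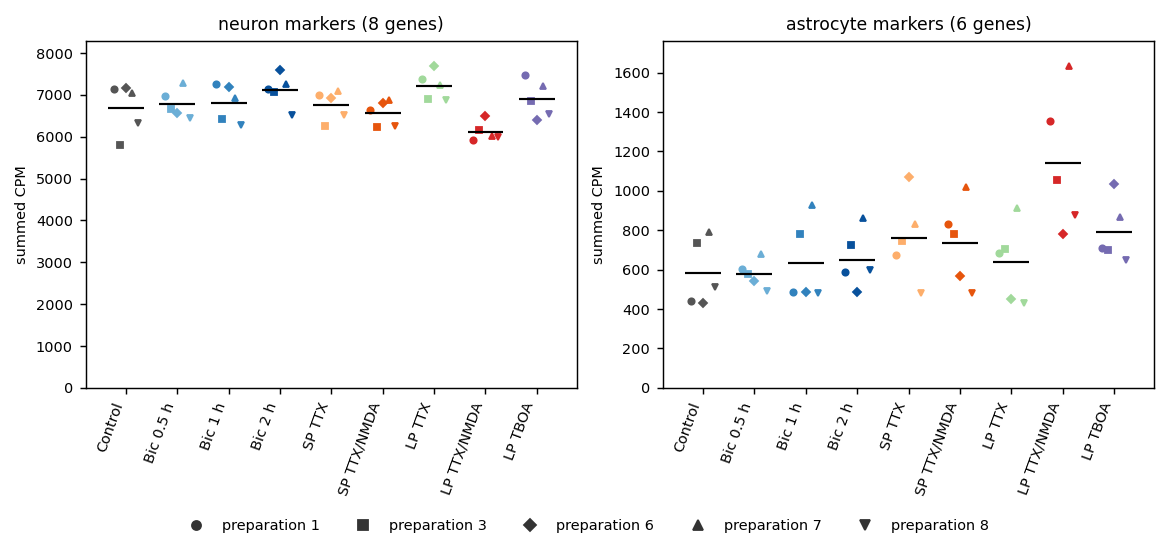
Summed level (CPM, linear axis from 0) of 8 neuron and 6 astrocyte marker genes in each of the 45 libraries, with a line at each condition mean. The astrocyte sum averages 1139 CPM with LP TTX/NMDA against 637 CPM with LP TTX, and the neuron sum 6119 against 7215 CPM.

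**Figure D4:**
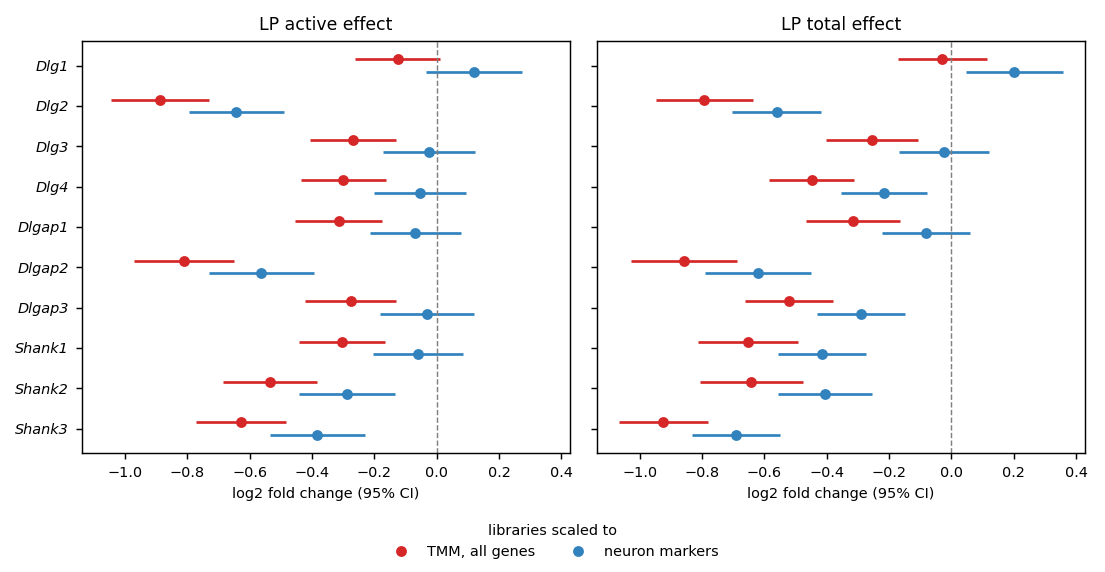
Log2 fold change with 95% confidence interval of each scaffold gene in the LP active and LP total effects, with libraries scaled by TMM over all genes (red) or to their neuron marker counts (blue). Scaling to neuron markers moves all points to the right by about 0.25 and 0.23, and Dlg2, Dlgap2, Shank2 and Shank3 stay below 0 with their whole interval in both panels.

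Ratios between members within a library do not depend on the scaling. The ratio of each other member to Dlg1, compared between LP TTX/NMDA and LP TTX by an exact two-sided permutation test over the 5 and 5 libraries, was examined after the levels were known, with Dlg1 taken because it was the member not called, and with 9 ratios adjusted by Benjamini-Hochberg. Dlg1 had the smallest LP active change of all members, so this choice set the direction of every ratio. The p-values therefore cannot test whether a member fell. Relative to Dlg1, Dlg2 fell by 0.77, Dlgap2 by 0.68, Shank3 by 0.50 and Shank2 by 0.41 on the log2 scale, in 5 of 5 preparations each. Each had an exact p = 0.0079 in this permutation test, the smallest that 5 against 5 unpaired libraries allow, and an adjusted p = 0.018. The test left aside that both groups came from the same 5 preparations, and no paired test of the ratios was run. Dlgap1 fell by 0.19, Dlg4 by 0.17 and Dlgap3 by 0.15 (in 4 of 5 preparations each, exact permutation test, adjusted p = 0.041 for each). For Shank1 (-0.18, exact permutation test, adjusted p = 0.071) and Dlg3 (-0.15, adjusted p = 0.063 by the same exact test) the threshold was missed.

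In SP, where NMDA acted for 0.5 h, 5 of 10 members were called lower, against 3.32% of 32229 genes (7.81% of those with at least 1 CPM). Shank3 had 357, 311, 369, 332 and 344 CPM with SP TTX and 266, 235, 215, 229 and 267 CPM with SP TTX/NMDA, groups that did not overlap (log2 fold change -0.51, SE 0.07, adjusted p = 1.0e-05). Dlg2 had 597, 604, 660, 677 and 612 CPM against 478, 470, 537, 453 and 502 CPM with NMDA (log2 fold change -0.38, SE 0.07, adjusted p = 0.00038). Dlgap2 went from 50.4 ± 3.61 to 39.3 ± 1.92 CPM (-0.37, SE 0.07, adjusted p = 0.00073). Shank2 (-0.29, SE 0.08, adjusted p = 0.030) and Shank1 (-0.24, SE 0.06, adjusted p = 0.026) were nearer the threshold. Shank2 missed it once low-count genes were filtered out (adjusted p = 0.078) or without preparation 1 (adjusted p = 0.13), and Shank1 without any of preparations 1, 6, 7 and 8 (adjusted p = 0.054 to 0.12). With libraries scaled to neuron markers Shank3, Dlg2 and Dlgap2 stayed called, 3 of 10 against 1.77% of genes, and the split over all genes went from 308 higher and 1071 lower to 379 higher and 572 lower. With all 45 libraries in one fit Shank3 and Dlg2 stayed called, and Dlgap2 (adjusted p = 0.080), Shank1 and Shank2 did not. Dlgap1 (-0.22, SE 0.07, adjusted p = 0.073) was called with the preparation as a block (adjusted p = 0.020). The astrocyte markers were not called in this comparison (median log2 fold change 0.10), and their summed level was 484 to 1072 CPM with SP TTX and 483 to 1022 CPM with SP TTX/NMDA. Of the 8 neuron markers, Map2 and Slc17a7 were called lower and Gad1 higher, and mitochondrial transcripts took 0.665% to 1.02% of counts with SP TTX and 0.900% to 1.37% with SP TTX/NMDA, shifts whose part in the member changes was not tested.

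Set side by side, the active effect was larger after LP than after SP for 2 members by a test of the difference itself, against 1.85% of 35027 genes with a more negative LP effect (4.66% of those with at least 1 CPM). The difference, LP minus SP, was -0.50 for Dlg2 (SE 0.10, adjusted p = 0.0024) and -0.43 for Dlgap2 (SE 0.10, adjusted p = 0.016). For Dlgap2 the call was lost without preparation 1 (adjusted p = 0.11) or 3 (adjusted p = 0.056), and with all 45 libraries in one fit (adjusted p = 0.18). With the preparation as a block, Shank2 (-0.24, adjusted p = 0.028) and Dlg4 (-0.18, adjusted p = 0.045) were called too. Shank3, already low after SP, had a difference of -0.11 (95% CI -0.32 to 0.10), and Shank1 one of -0.05 (95% CI -0.23 to 0.12). The protocols differ in the time in Bic as well as in the time in NMDA, so both durations enter this difference. Astrocyte markers were called higher in the LP active effect (6 of 6) but not in SP (0 of 6), and their part was not tested. The difference was not refitted on the neuron marker scale. On that scale Dlg2 was at -0.33 in SP and -0.64 in LP, and Dlgap2 at -0.32 and -0.56.

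**Figure D5:**
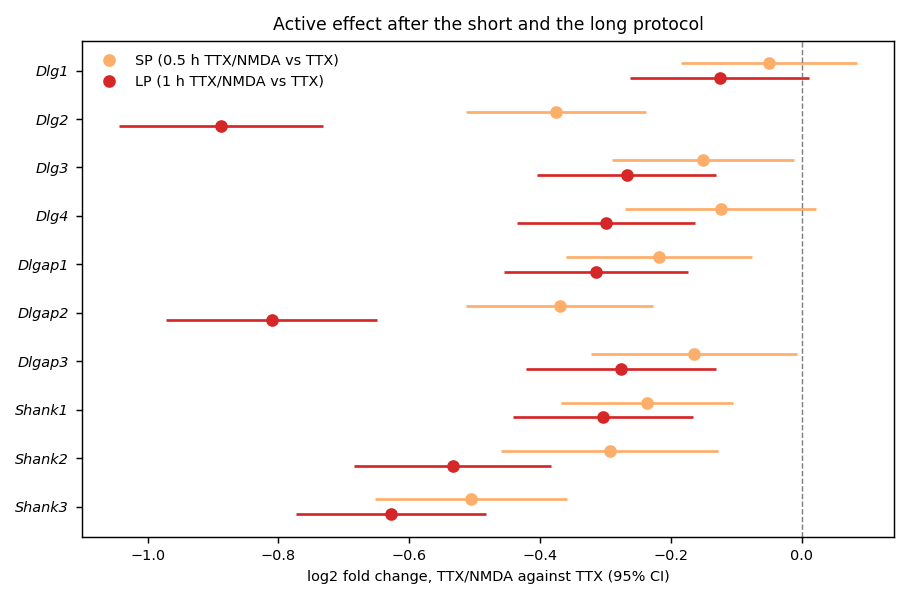
Log2 fold change of TTX/NMDA against TTX with its 95% confidence interval for each scaffold gene after the short (orange) and the long (red) protocol. The intervals of Dlg2 and Dlgap2 are apart between protocols, at -0.38 against -0.89 and -0.37 against -0.81, while those of Shank3 overlap, at -0.51 and -0.63.

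The total effect sets TTX/NMDA against cultures left in Bic, and so joins the passive and active parts. It shares its TTX/NMDA libraries with the active effect. In LP, 9 of 10 members were again called lower, against 11.1% of 32243 genes (25.1% of those with at least 1 CPM), with Shank3 in the lead at -0.92 (SE 0.07, adjusted p = 2.3e-12), followed by Dlgap2 at -0.86, Dlg2 at -0.79, Shank1 at -0.65, Shank2 at -0.64, Dlgap3 at -0.52, Dlg4 at -0.45, Dlgap1 at -0.32 and Dlg3 at -0.25. Against 2 h Bic, Shank3 was lower by 46.6% ± 5.52 over the 5 preparations and Shank1 by 35% ± 7.20. Shank1, Shank3 and Dlgap3 were called in both the passive and the active effect, whereas Dlg2 had a passive log2 fold change of 0.09 (95% CI -0.04 to 0.22) and Dlgap2 one of -0.05 (95% CI -0.21 to 0.11). Dlg1 had a total effect of -0.03 (95% CI -0.17 to 0.11, adjusted p = 0.81). Scaled to neuron markers, 7 members stayed called lower (4.82% of genes were), Dlgap1 (-0.08) and Dlg3 (-0.02) did not, and Dlg1 was called higher (0.20, adjusted p = 0.041), as were 25.4% of genes. The split over all genes was 3768 higher and 3593 lower with TMM, 2926 and 4324 with upper-quartile factors, and 8183 and 1555 with neuron markers. All 6 astrocyte markers were called higher in this comparison as well.

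In SP the total effect was called lower for 5 of 10 members (against 3.41% of 31414 genes and 7.75% of those with at least 1 CPM): Shank3 (-0.56), Dlgap2 (-0.46), Shank1 (-0.39), Shank2 (-0.35) and Dlg2 (-0.35), with adjusted p from 7.1e-07 to 0.0030. With the preparation as a block 8 were called, adding Dlg4 (-0.18, adjusted p = 0.0049), Dlgap1 (-0.21, adjusted p = 0.0060) and Dlgap3 (-0.26, adjusted p = 0.0012). Scaled to neuron markers the count was again 5, against 1.86% of genes, and the split over all genes went from 280 higher and 1071 lower to 467 higher and 583 lower. Mitochondrial transcripts took 0.614% to 0.829% of counts after 1 h Bic and 0.900% to 1.37% with SP TTX/NMDA, a shift whose part was not tested.

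Against untreated control, LP TTX/NMDA left 8 of 10 members lower (8.55% of 32092 genes were, and 19.5% of those with at least 1 CPM), with log2 fold changes from -0.71 for Dlg2 to -0.29 for Dlg4. Shank1 came out at -0.23 (SE 0.11, adjusted p = 0.14), and Dlg1 at 0.15 (SE 0.08, adjusted p = 0.23), called higher with the preparation as a block (adjusted p = 0.045). The astrocyte marker sum was 430 to 792 CPM in control against 780 to 1632 CPM, and mitochondrial transcripts took 0.749% to 1.04% of counts against 1.40% to 1.87%. Their part in this comparison was not tested, and it was not refitted with neuron marker scaling. Dlg4 lost its call without preparation 1, 6 or 7 (adjusted p = 0.052 to 0.076) and Dlgap1 without preparation 7 (adjusted p = 0.057). LP TTX alone left 1 of 10 members higher than control (4.33% of 31694 genes were, and 8.9% of those with at least 1 CPM): Dlg1, from 67.8, 65.6, 75.8, 67.2 and 78.8 CPM to the LP TTX values above. Every LP TTX library exceeded every control library (log2 fold change 0.26, SE 0.08, adjusted p = 0.036), and the rise within preparations was 21% ± 2.29. That call was lost without preparation 1, 6 or 7 (adjusted p = 0.10 to 0.12).

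Glutamate spillover with TBOA moved the scaffold genes far less than bath-applied NMDA. Against 2 h Bic 0 of 10 members were called by edgeR (0.602% of 31706 genes were, in either direction), with 3 at an unadjusted p under 0.05. All 10 log2 fold changes were below 0, from -0.23 for Shank3 and Dlgap2 to -0.04 for Dlg1. Shank3 had 338, 311, 314, 350 and 331 CPM with TBOA, every library below all those of 2 h Bic (log2 fold change -0.23, SE 0.06, adjusted p = 0.063). It was called with the preparation as a block (adjusted p = 0.027), with DESeq2, and with DESeq2 or upper-quartile size factors. The direct comparison of both excitotoxic conditions showed 8 of 10 members higher with LP TBOA than with LP TTX/NMDA, against 7.99% of 32684 genes (18.6% of those with at least 1 CPM). The difference was 0.68 for Dlg2 (SE 0.08, adjusted p = 2.5e-08), 0.67 for Shank3, 0.60 for Dlgap2, 0.50 for Shank2, 0.48 for Shank1, 0.32 for Dlg4 and Dlgap3, and 0.24 for Dlgap1. Dlgap1 lost its call without preparation 1, 3 or 7 (adjusted p = 0.079 to 0.28), Dlg3 (0.16, adjusted p = 0.13) was called with the preparation as a block (adjusted p = 0.033), and Dlg1 was at -0.03. LP TBOA had no TTX, so these conditions differ in the block of AP firing as well as in the source of the agonist. The astrocyte marker sum was 650 to 1036 CPM with LP TBOA against 780 to 1632 CPM with LP TTX/NMDA. The neuron marker sum was 6390 to 7473 CPM against 5930 to 6489 CPM. Mitochondrial transcripts took 0.663% to 1.06% of counts against 1.40% to 1.87%. Their part in this comparison was not tested, and the comparison was not refitted with neuron marker scaling.

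Genes that work with these scaffolds were read from a list of 44 other proteins of the excitatory postsynaptic density. This list and those below were counted with TMM alone, not on the neuron marker scale. In the LP active effect 27 of 44 were called lower (26.9% of genes with at least 1 CPM were), 2 higher and 15 not called, with a median log2 fold change of -0.32. The 4 with the widest change were Homer1, the adaptor that Shank proteins bind (from 840 ± 71.5 to 210 ± 51.7 CPM, log2 fold change -2.01, SE 0.11, adjusted p = 4.2e-14), Camk2a, the kinase subunit abundant in the density (from 1122 ± 113 to 516 ± 94.3 CPM, -1.13), Cnksr2 (-0.96) and Lrrc7, which encodes densin (-0.96). Pick1 (0.37) and Lin7b (0.35), PDZ adaptors, were those called higher. In the LP total effect 28 of 44 were lower, against 25.1% of genes with at least 1 CPM, and none higher. After 2 h Bic 5 were higher, against 8.18% of such genes, and 1 lower. With TBOA 1 was lower (Homer1, -0.55), against 0.602% of all genes tested in either direction. Of 7 genes of the inhibitory postsynaptic scaffold, 3 were called lower in the LP active effect and 4 were not called, against the same 26.9% of genes. Among those called was Gphn, which encodes gephyrin (-0.34). In the LP total effect 5 of the 7 were called lower, against the same 25.1% of genes. The 3 family relatives outside the set were not called in the LP active effect: Dlg5 (-0.18, adjusted p = 0.051), Dlgap4 (-0.09, adjusted p = 0.33) and Dlgap5 (0.68, SE 0.32, adjusted p = 0.14). Of these 3, 2 were called lower in the LP total effect and 1 in the SP active effect, against 25.1% and 7.81% of genes with at least 1 CPM.

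Over the 9 condition means, the members other than Dlg1 followed similar courses. Pearson's r of log2 CPM between them ran from 0.52 (Dlg3 and Shank1) to 0.98 (Dlgap2 and Shank2), and between Dlg1 and the others from -0.37 to 0.05. These values describe 9 points that share libraries and carry no test. Among 13591 other genes with at least 1 CPM, those most like Dlg2 included Clasp2 (r = 0.998) and Dmxl2 (0.997), those most like Dlgap2 were Dennd1a (0.992), Exoc6b (0.990) and Unc13a (0.990), and those most like Shank3 were Cnnm2 (0.992), Rapgef1 (0.991) and Cic (0.989). With 9 points a high r is common: 668 genes had an r of at least 0.95 with Dlg2, 415 with Dlgap2 and 314 with Shank3.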

How the data were processed

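Poly-A RNA was sequenced by the authors in single-end runs of 75 cycles from stranded libraries. Per the labels and the study's methods they used bcl2fastq 2.20.0.422, STAR 2.5.4b on GRCm38 with Ensembl 94, and featureCounts 1.6.5, and deposited a table of raw read counts per gene, counted by strand without multi-mapping reads. Group and culture preparation came from the sample labels. Of 54532 identifiers 54409 had a symbol. Counts were fitted in edgeR 4.0.16 (R 4.3.3): TMM scaling, genes with at least 1 read in the libraries of the comparison, the quasi-likelihood test and Benjamini-Hochberg adjustment over all genes, called at an adjusted p under 0.05. Each comparison used its own 10 libraries, the differences between protocols 20. The SE is the log2 fold change divided by the root of F. All 10 members are named throughout, with up to 4 genes of each other list by size of change. Members and lists were chosen with earlier results of these data known.

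Alternatives were other scale factors, DESeq2 1.42.0, filtering by expression, the preparation as a block, all 45 libraries in one fit, each preparation left out, and scaling to neuron markers (added after seeing the data). The preparation numbers are labels of a shared culture; deviations of same-numbered libraries correlated at 0.434 on average over 180 pairs, against -0.107 for different numbers. The prior degrees of freedom were 20.4 to 44.9 in the fits over all genes with a read and 5.49 to 6.97 after filtering, so the filtered fit leaves more room for variance between genes. On simulated data whose dispersion differed between genes the unfiltered fit made more false calls than the filtered one, and the member calls that the filter changed are named beside the result. Intervals rest on 5 preparations per condition. Gene models were GENCODE M21 (GRCm38). Results for 1 other gene are not reported here.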

Additional observations from a re-analysis of the deposited data

Results flagged for a closer look

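The difference between the LP and SP active effects was past the threshold for Dlg2 (-0.50 on the log2 scale) and Dlgap2 (-0.43). Whether the other 8 members differ from these was not tested, and Shank2 and Dlg4 were called as well with the preparation as a block. The difference was not refitted on the neuron marker scale. Astrocyte markers were called higher in the LP active effect (6 of 6) but not in SP (0 of 6), and their part was not tested.

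Single libraries stood apart from the other 4 of their condition in 3 of 90 combinations of member and condition, by Dixon's criterion, which chance alone meets in about 1 in 20. Dlg1 was high in preparation 6 after 1 h Bic (81 CPM against 68.6 to 71.4 CPM). Dlg4 was low in the control of preparation 3 (538 CPM against 664 to 710 CPM). Dlgap3 was high in preparation 6 after 2 h Bic (371 CPM against 315 to 322 CPM).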

How the results depend on the processing

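Of 52 member changes called, none changed direction under any alternative run. Of 652 alternative values, 616 stayed called and 36 did not.

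The number of members called moved by over 1.5 times as follows. With the preparation as a block and low-count genes filtered, it went to 1 after 1 h Bic (from 0), 8 in the SP total effect (from 5), 1 for spillover (from 0) and 4 in the difference between active effects (from 2). The block over all genes with 1 read gave 1 after 0.5 h Bic (from 0), 3 after 1 h, 4 after 2 h (from 2), 8 in the SP total effect, 4 for spillover, 3 for LP TTX against control (from 1) and 1 in the difference between passive effects (from 0). The block ended no call. Filtering alone gave 1 after 2 h Bic (from 2). All 45 libraries in one fit gave 2 in the SP active effect (from 5) and 1 in the difference between active effects (from 2). Scaling to neuron markers gave 3 in the SP active effect (from 5) and 4 in the LP active effect (from 9). For spillover, DESeq2 size factors, upper-quartile factors and the DESeq2 test gave 1 each. The cause of these moves was not tested, beyond the shift that scaling to neuron markers puts on every gene.

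Leaving out each preparation in turn gave 9 to 9 members in the LP active and LP total effects, 2 to 2 after 2 h Bic, 3 to 5 in the SP active effect, 5 to 7 in the SP total effect, 2 to 3 in the LP passive effect, 0 to 2 for spillover, 0 to 1 for LP TTX against control, 6 to 9 for LP TTX/NMDA against control, 7 to 9 for LP TBOA against LP TTX/NMDA, 1 to 2 in the difference between active effects and 8 to 10 over all 9 conditions. Without preparation 7 spillover gave 1 member and without preparation 8 it gave 2.

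Each member had 447 counts or more in every library. Whether depth or the spread between preparations limits the calls was not tested.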

Other observations

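The members with the widest LP active effect include the longest genes, a point looked at after the values were seen and described without a test. Dlg2 spans 1973 kb and Dlgap2 752 kb, with log2 fold changes of -0.89 and -0.81, and Shank2, at 423 kb, had -0.53, but Dlgap1, at 852 kb, had -0.31, and Shank3, at 60.6 kb, had -0.63. Among protein-coding genes with at least 1 CPM, 23.8% of the 10568 that span under 100 kb were called lower in the LP active effect, 44.5% of the 1816 from 100 to 400 kb, and 64.8% of the 318 of at least 400 kb, with median log2 fold changes of 0.01, -0.18 and -0.37.

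The summed level of the 10 members was 3129 to 3531 CPM with LP TTX, 2364 to 2618 CPM with LP TTX/NMDA and 2996 to 3510 CPM with LP TBOA. In LP TBOA the lowest library of 7 members was that of preparation 6, which also had the highest astrocyte marker sum of that condition, 1036 CPM.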
